A study of Rattus norvegicus with 12 samples.

Results

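The question here was which genes of the lung responded differently to the mast cell stabilizer ketotifen in heart failure than in sham-operated rats. All 12 arrays of the series were used, 1 for the whole lung of each rat, in 4 groups of 3. The rats were male Sprague-Dawley. Congestive heart failure, CHF in the labels, followed a band placed above the coronary arteries around the aorta of juvenile animals weighing 91 ± 9 g, while sham rats had the operation without the clip. Lungs were taken 9 weeks later, when the banded rats had pulmonary hypertension secondary to left heart failure, the ejection fraction being preserved. The groups were sham with placebo, sham with ketotifen, CHF with placebo and CHF with ketotifen, the drug being given at 1 mg/kg/day in the drinking water from day 1 after banding. The labels call the other arm placebo, and the design text calls the heart failure rats without drug untreated.

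The interaction of surgery and drug is the ketotifen-minus-placebo difference in CHF lungs minus the same difference in sham lungs, on the log2 scale of the deposited expression values, where each unit is a 2-fold change. A value above 0 means that ketotifen lungs lay higher, relative to placebo, in CHF than in sham rats. Of 31042 probe sets, 16536 had a log2 value of at least 4 in at least 3 arrays and were tested with limma. Of these, 61 probe sets (0.369%) were called at an adjusted p under 0.05. The interaction was above 0 in 42 of them (0.254%), which named 35 genes, and below 0 in 19 (0.115%), which named 13 genes. At an unadjusted p under 0.05 there were 1778 probe sets. The median interaction of all probe sets tested was -0.03. No read depth exists for an array, and the number of arrays limits the precision. The labels give 3 rats per group, and p-values here measure the spread between these rats, with whatever was shared in their handling. Values below about 4 are near background, so the size of a difference from such a level is uncertain.

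Ketotifen stabilizes mast cells, which store histamine, proteases and heparin in granules and release them on activation, and it also blocks the histamine H1 receptor. Mast cells lie around airways and vessels of the lung, and left heart disease raises the pressure in the lung veins on which the vessels then remodel. Many cytokine and chemokine genes are switched on through NF-kappaB, a transcription factor held in the cytoplasm until a signal frees it, and together with AP-1, the Fos and Jun dimers. NF-kappaB also switches on its own inhibitors, so that the response ends.

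Several genes with a positive interaction belong to this response. From all genes with a positive interaction, 5 promoters are shown because they hold a kappaB or an AP-1 motif. A motif alone does not place a gene in this response. Of the 48 called genes, 35 had a promoter in the RefSeq table (assembly GRCr8), and the 250 bases before the annotated start were searched on both strands, matches of different motifs being allowed to overlap. The kappaB motif (GGGA, then any base, then TTTCC) was found in 3 of 24 promoters of genes with a positive interaction (12.5%), in 0 of 11 with a negative one and in 0.317% of 27457 promoters of all genes. The AP-1 motif TGANTCA was found in 5 of the 24 (20.8%), in 0 of the 11 and in 6.36% of all. The cyclic AMP response element TGACGTCA was in 1 of the 24 (4.17%), that of Il6, against 1.7% of all. The antioxidant response element TGACNNNGC was in 4.17% of the positive and 9.09% of the negative set against 10.2% of all, and the dioxin response core GCGTG in 33.3% and 36.4% against 27.2%. These are matches of letters and not measured binding. In the 3 promoters with a kappaB match the match is in capitals. It lies 68 to 59 bases before the start in Il6 (chr4:5894576-5894825, minus strand), 84 to 75 bases before it in Cxcl1 (chr14:17479322-17479571, minus strand) and 13 to 4 bases before it in Nfkbiz (chr11:58251471-58251720, plus strand).
Il6: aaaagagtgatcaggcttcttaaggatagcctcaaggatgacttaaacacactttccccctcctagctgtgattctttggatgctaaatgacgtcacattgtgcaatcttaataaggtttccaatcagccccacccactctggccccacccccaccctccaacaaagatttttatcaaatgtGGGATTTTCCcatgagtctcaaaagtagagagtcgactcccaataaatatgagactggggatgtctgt
Cxcl1: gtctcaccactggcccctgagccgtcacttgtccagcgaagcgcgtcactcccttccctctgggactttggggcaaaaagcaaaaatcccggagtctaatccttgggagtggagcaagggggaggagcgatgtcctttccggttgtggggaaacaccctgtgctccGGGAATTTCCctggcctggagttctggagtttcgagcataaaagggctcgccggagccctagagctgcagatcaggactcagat
Nfkbiz: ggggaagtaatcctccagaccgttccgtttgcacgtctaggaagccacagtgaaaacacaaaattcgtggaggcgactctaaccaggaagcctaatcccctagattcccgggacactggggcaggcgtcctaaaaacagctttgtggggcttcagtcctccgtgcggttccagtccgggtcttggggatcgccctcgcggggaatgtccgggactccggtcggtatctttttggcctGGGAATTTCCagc

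The AP-1 match is in capitals in the promoter of the chemokine gene Ccl7 (chr10:67513845-67514094, plus strand, 73 to 67 bases before the start) and in that of Srxn1, the gene of an antioxidant enzyme (chr3:161064562-161064811, plus strand, 62 to 56 bases before it). The other AP-1 matches were in Depdc1, Tfpi2 and Slc16a3.
Ccl7: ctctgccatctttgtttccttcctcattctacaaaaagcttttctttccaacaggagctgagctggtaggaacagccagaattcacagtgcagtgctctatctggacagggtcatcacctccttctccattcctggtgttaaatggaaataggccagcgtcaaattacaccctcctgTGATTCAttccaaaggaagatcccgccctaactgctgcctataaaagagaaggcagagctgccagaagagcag
Srxn1: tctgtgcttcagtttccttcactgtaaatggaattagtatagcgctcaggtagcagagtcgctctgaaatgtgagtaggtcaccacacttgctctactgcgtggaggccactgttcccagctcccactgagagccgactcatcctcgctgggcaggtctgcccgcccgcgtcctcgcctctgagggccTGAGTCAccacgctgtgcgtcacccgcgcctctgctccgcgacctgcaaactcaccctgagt

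Cytokine and chemokine genes had the highest median interaction of the 41 fixed gene lists. Of 26 such genes, 19 were tested, 5 had a called positive interaction and 0 a called negative one, and 15 of the 19 lay above 0. Their median interaction was 2.25, made of a median drug difference of 2.65 in CHF and 0.129 in sham lungs, against 0.00788 for the interaction of all 9788 genes tested, of which 0.45% were called. Ccl7 and Cxcl2 reached a log2 value of 4 in the CHF ketotifen lungs alone, so the filter admitted them through the group where they are high. Uniformly low genes were left out. The median, the share above 0 and the ranking of this list are thus partly set by the filter. These lists were chosen with earlier results of the same arrays known.

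Il6, the gene of interleukin 6, which drives the acute-phase response, had the largest interaction. Its log2 values were 11.23, 11.21 and 10.58 in CHF lungs with ketotifen, 5.73, 2.52 and 2.49 in CHF lungs with placebo, 2.54, 2.53 and 2.51 in sham lungs with ketotifen and 2.5, 2.56 and 2.48 in sham lungs with placebo. All 3 CHF ketotifen lungs lay far above the other 9, of which only CHF placebo lung 1 stood above background. The interaction was 7.41 ± 0.95 (SE, n = 3 per group, adjusted p = 0.00763), with a drug difference of 7.42 in CHF and 0.01 in sham lungs. It ran from 6.87 to 8.48 when each lung was left out in turn, the highest value being without CHF placebo lung 1.

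Ccl2 and Ccl7 encode chemokines that draw monocytes out of the blood. Ccl7 was at 8.91, 8.95 and 8.33 in CHF ketotifen lungs and between 2.74 and 3.24 in the other 9, with an interaction of 5.77 ± 0.29 (adjusted p = 9.48e-06), the smallest p of all. Ccl2 was at 11.23, 11.48 and 10.75 in CHF ketotifen lungs, at 6.18, 5.48 and 4.84 in CHF placebo lungs, at 4.41, 4.96 and 4.5 in sham ketotifen and at 3.88, 3.62 and 3.91 in sham placebo lungs. For Ccl2 the 4 groups lay in separate steps except that sham ketotifen and CHF placebo overlapped, and the interaction was 4.83 ± 0.44 (adjusted p = 0.000901), from a drug difference of 5.65 in CHF and of 0.82, not called (adjusted p = 0.302), in sham lungs.

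Cxcl1, Cxcl2 and Cxcl3 encode chemokines that draw neutrophils. Cxcl2 was at 8.47, 8.05 and 7.75 in CHF ketotifen lungs and between 2.21 and 2.68 in all others (interaction 5.55 ± 0.30, adjusted p = 1.22e-05). Cxcl1 was expressed in every lung, at 12.07, 12.03 and 12.22 in CHF ketotifen lungs against 6.84 to 8.06 in the other 9, so that its interaction of 4.36 ± 0.43 (adjusted p = 0.00163) did not start from background. Of 5 probe sets of Cxcl3 1 was called, at 2.83 ± 0.46 (adjusted p = 0.0279), while the other 4 gave 0.46 to 2.22 and were not called. Related chemokine genes share sequence, and the probe sets of Cxcl3 disagree in size.

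The 4 cytokine genes below 0 were not called, and are named after their values were seen: Il1a at -1.82, Il33, the gene of an alarmin, at -1.66, Csf2 at -0.65 and Il18 at -0.19. A receptor gene was also among the called genes. Il1r2, a decoy receptor that binds interleukin 1 without signalling and is also a neutrophil marker, was at 5.66, 4.62 and 5.54 in CHF ketotifen lungs and between 2.28 and 2.72 elsewhere (interaction 2.49 ± 0.37, adjusted p = 0.0199). Of the 5 neutrophil genes tested, Il1r2 was the 1 called. S100a8, an abundant neutrophil protein gene, had an interaction of 1.01, and Csf3r, the receptor for granulocyte colony-stimulating factor, one of -1.17. Neither was called, and the mean of the neutrophil list overlapped between groups, with 8.85, 7.78 and 8.79 in CHF ketotifen lungs and 5.33 to 7.82 in the others. In whole lung, more cells of a type and more RNA per cell cannot be told apart.

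**Figure D1:**
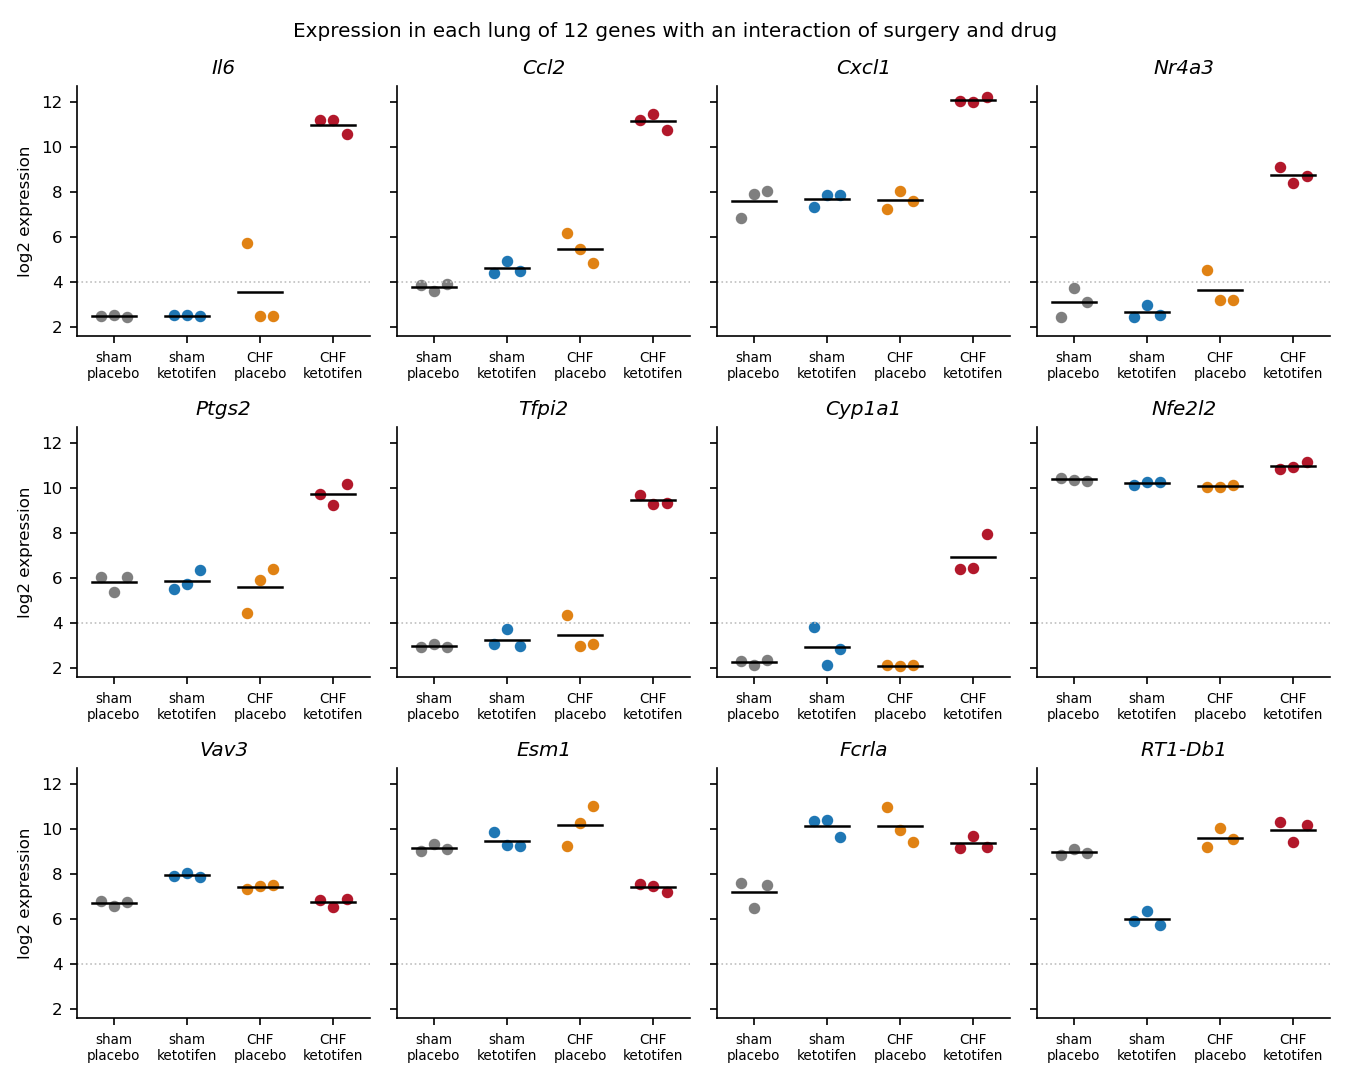
Log2 expression of 12 genes with a called interaction, 1 point per lung and a bar at the mean of each group of 3; the dotted line marks a log2 value of 4, used in the filter. Il6, Ccl2, Cxcl1, Nr4a3, Ptgs2, Tfpi2, Cyp1a1 and Nfe2l2 are highest in all 3 CHF ketotifen lungs, Esm1 is lowest there, Vav3 and RT1-Db1 stand apart in sham ketotifen lungs, and Fcrla is lowest in sham placebo lungs.

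Genes of NF-kappaB feedback followed the cytokines: 3 of 16 tested were called, all positive (18.8%, against 0.45% of all genes). Above 0 lay 13 of 16, against 50.8% of all genes, and the median interaction was 1.32. Bcl3, an atypical inhibitor family member that acts with NF-kappaB subunits in the nucleus, was at 6.96, 7.42 and 7.68 in CHF ketotifen lungs and between 4.77 and 5.4 in the other 9 (interaction 2.34 ± 0.30, adjusted p = 0.00763). Nfkbiz, whose protein is needed for the induction of Il6 in many cells, was at 9.88, 9.88 and 9.85 against 7.80 to 8.39 (1.78 ± 0.24, adjusted p = 0.00964). Neither overlapped between CHF ketotifen and the other lungs. Ptgs2, the inducible cyclooxygenase, was at 9.76, 9.27 and 10.21 against 4.45 to 6.42 (4.09 ± 0.65, adjusted p = 0.0258). Sele, the endothelial selectin gene, at 2.68 ± 0.51, did not pass for the interaction (adjusted p = 0.0649), although its drug difference in CHF lungs was called, at 2.88.

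The called genes Zc3h12a and Arid5a, picked after their values were seen and without a survey of other such regulators, have opposing actions on Il6 messenger RNA. Zc3h12a encodes regnase-1, an RNase that degrades it, and had an interaction of 1.72 ± 0.29 (adjusted p = 0.0363), with 6.43, 5.92 and 6.30 in CHF ketotifen lungs and 4.09 to 4.78 elsewhere. Arid5a encodes a protein that stabilizes it, and was at 4.71, 4.59 and 5.44 against 2.63 to 3.58 (2.29 ± 0.34, adjusted p = 0.0199). Both were thus higher in all 3 CHF ketotifen lungs than in any other lung.

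Immediate early genes, which respond to signals within minutes without new protein, were called in 4 of 22 cases, all positive. That is 18.2%, against 0.45% of all genes, and the median interaction was 0.763. Nr4a3, an orphan nuclear receptor, was at 9.14, 8.40 and 8.71 in CHF ketotifen lungs, 4.56, 3.21 and 3.21 in CHF placebo, 2.48, 2.99 and 2.57 in sham ketotifen and 2.45, 3.73 and 3.15 in sham placebo lungs (5.52 ± 0.58, adjusted p = 0.00182). Its other probe set, also called, gave 4.84. Fosb, an AP-1 subunit, was at 7.46, 8.02 and 6.54 against 2.70 to 3.10 (4.27 ± 0.43, adjusted p = 0.0017). Ier3, a survival gene of the stress response, was bright everywhere, at 11.53, 12.03 and 11.62 against 9.68 to 10.15 (2.01 ± 0.21, adjusted p = 0.0017). Myc, the growth regulator, was at 9.24, 9.27 and 9.10 against 6.64 to 7.86 (1.90 ± 0.33, adjusted p = 0.0424). The response was uneven within the list: Fos was at 1.05, Jun at 0.05, Nr4a1 at 0.13, Klf2 at -1.24 and Dusp1 at -1.08, none of them called, and these 5 are named after their values were seen. Atf3, counted with the unfolded protein response, was at 2.46 and was not called (adjusted p = 0.173).

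The next list held targets of the aryl hydrocarbon receptor, which senses foreign and endogenous aromatic compounds, and of Nrf2, which senses oxidants. Of 10 such genes tested, 2 were called, both positive (20%, against 0.45% of all genes). Above 0 lay 9 of 10, against 50.8% of all genes, and the median interaction was 0.869. Cyp1a1, the classic aryl hydrocarbon receptor target, was at 6.41, 6.46 and 7.98 in CHF ketotifen lungs, at 2.13, 2.11 and 2.13 in CHF placebo, at 3.82, 2.13 and 2.87 in sham ketotifen and at 2.33, 2.15 and 2.36 in sham placebo lungs (4.17 ± 0.64, adjusted p = 0.0241). Sham ketotifen lungs 1 and 3 lay slightly above the placebo lungs, below the level of 4 used in the filter. Tiparp, another target of the receptor and a brake on it, was at 10.32, 10.09 and 10.52 against 8.10 to 8.57 (1.68 ± 0.21, adjusted p = 0.00763), and its brighter probe set gave 1.16 and was not called. Cyp1b1 was at 2.60 and was not called (adjusted p = 0.217).

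Nfe2l2, the gene of Nrf2 itself, had the smallest positive interaction among those called, 1.03 ± 0.15 (adjusted p = 0.0182), and is named after its values were seen. It was at 10.86, 10.94 and 11.16 in CHF ketotifen lungs, 10.08, 10.08 and 10.15 in CHF placebo, 10.16, 10.30 and 10.29 in sham ketotifen and 10.48, 10.38 and 10.33 in sham placebo lungs. The Nrf2 target Srxn1, sulfiredoxin, was at 4.77, 5.16 and 4.42 against 2.09 to 2.83 (2.57 ± 0.28, adjusted p = 0.00223). With values under 4 set to 4, 8 genes were no longer called: Srxn1, Il1r2, Arid5a, Frzb, Star, Gfpt2, Ifit1 and Chtf8. Txnrd1, a thioredoxin reductase, was at 0.62 and was not called (adjusted p = 0.36).

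Several called genes act outside the cell or in metabolism. Tfpi2, a matrix-bound inhibitor of serine proteases, was at 9.72, 9.29 and 9.37 in CHF ketotifen lungs, 4.38, 3.00 and 3.10 in CHF placebo lungs and 2.93 to 3.73 in sham lungs (5.70 ± 0.48, adjusted p = 0.000469). It was the 1 gene called among 11 of coagulation and fibrinolysis. Plaur, the urokinase receptor, had an interaction of 3.07 ± 0.78 that did not pass (adjusted p = 0.173). Adamts4, which cleaves cartilage and vessel proteoglycans, was at 7.77, 7.25 and 7.41 against 4.18, 2.85 and 2.77 in CHF placebo lungs (4.35 ± 0.46, adjusted p = 0.00186). Frzb, a secreted Wnt antagonist, was at 6.17, 4.96 and 5.91 against 3.15, 1.91 and 1.77 in CHF placebo lungs (3.5 ± 0.54, adjusted p = 0.0241), and its other probe set, also called, gave 3.83. In Il6, Nr4a3, Tfpi2, Adamts4 and Frzb alike, CHF placebo lung 1 was the highest of the placebo lungs of CHF rats.

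Gfpt2, which opens the hexosamine pathway from glucose, was at 8.23, 6.19 and 8.67 against 3.25 to 3.59 in every other lung (4.21 ± 0.69, adjusted p = 0.0297). Star, which carries cholesterol into mitochondria for steroid synthesis, was at 5.03, 6.40 and 5.03 against 1.77 to 2.69 (3.13 ± 0.50, adjusted p = 0.0271). Both rose from background, and the CHF ketotifen lungs did not overlap the others.

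Smaller positive interactions, in genes named after their values were seen, included Kcne4, a potassium channel subunit (2.89 ± 0.42), Itpkc, a kinase of inositol trisphosphate (2.19 ± 0.30), Fbxo27, an F-box protein (2.12 ± 0.33), Gata5, a transcription factor (1.91 ± 0.35), Slc16a3, the lactate exporter MCT4 (1.80 ± 0.28), and Irs2, an insulin receptor substrate (1.68 ± 0.29). The cell division genes Depdc1 and Cdca3 were called at 2.55 ± 0.21 (adjusted p = 0.000469) and 1.88 ± 0.33 (adjusted p = 0.0409), Cdca3 again named after its values were seen. Depdc1 was at 5.68, 5.72 and 5.79 in CHF ketotifen lungs and 2.95 to 3.34 elsewhere. On the fixed cell cycle list 0 of 21 genes were called for the interaction (9 at an unadjusted p under 0.05), although 19 of 21 lay above 0 with a median of 1.16. Of all genes, 50.8% lay above 0. Aurkb had the smallest p of this list, with an interaction of 4.77 (adjusted p = 0.115). It was at 7.68, 7.43 and 8.24 in CHF ketotifen lungs and 6.35, 6.78 and 6.74 in CHF placebo lungs. In sham lungs Aurkb was at 5.54, 5.33 and 5.44 with ketotifen and 6.70, 10.45 and 9.99 with placebo. On the same list Ccnb1, which starts mitosis, was at 1.66 (adjusted p = 0.242). Its values were 5.62, 4.55 and 5.53 in CHF ketotifen lungs and 4.15 in CHF placebo lung 1, against 3.31 and 3.04 in the other CHF placebo lungs. CHF placebo lung 1 had the highest mean of this list among placebo lungs, 6.29 against 4.90 to 5.17.

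The shape of the response was read from the drug difference within each surgical group, taken from the same fit, so that these parts are not independent of the interaction. In CHF lungs 201 probe sets were called for ketotifen against placebo (1.22%), 136 higher (0.822%) and 65 lower (0.393%). In sham lungs 14 were called (0.0847%), 7 higher and 7 lower (0.0423% each), with 2310 at an unadjusted p under 0.05. Of the 42 probe sets with a positive interaction, 38 were called higher in CHF and not called in sham lungs, and 4 were called lower in sham and not called in CHF lungs. Over the 42 the median drug difference was 2.60 in CHF and -0.000432 in sham lungs. All 3 CHF ketotifen lungs lay above the other 9 in 38 of the 42 (90.5%), against 5.41% of all probe sets tested, an arrangement that the test itself favours. The filter favours it too, since a probe set near background elsewhere can pass through these 3 lungs alone. At least 1 group mean lay below 4 in 21 of the 42, against 3 of the 19 probe sets with a negative interaction.

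The 19 probe sets with a negative interaction were mixed. Of these, 7 were called lower in CHF alone, 4 were called higher in sham alone, 1 was called in both and 7 in neither. In absolute size the drug difference was larger in sham than in CHF lungs in 13 of 19, with signed medians of 0.867 in sham and -0.69 in CHF lungs. The signs were opposite in 17 of 19 (89.5%), against 19 of 42 (45.2%) of the positive set. The difference between these shares was not tested. Selection for a large interaction itself favours opposite signs, and the share over all probe sets was not computed. In the positive set the median sham difference was -0.000432, and a sign so near 0 means little.

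**Figure D2:**
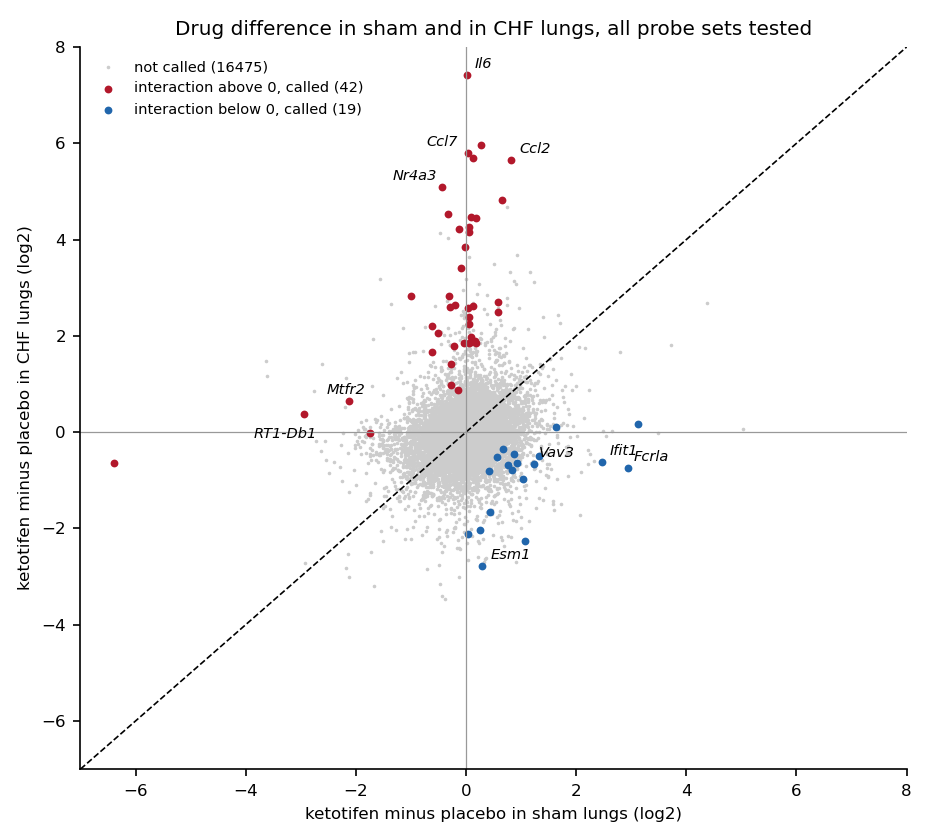
Ketotifen minus placebo in sham lungs (horizontal, log2) against the same difference in CHF lungs (vertical, log2) for all 16536 probe sets tested; the dashed line marks equal differences, and the 61 called for the interaction are coloured. Most of the 42 positive ones sit near 0 on the sham axis and high on the CHF axis, whereas most of the 19 negative ones lie right of and below 0.

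Vav3 was the 1 probe set called in both surgical groups, and in opposite directions. It was at 6.85, 6.57 and 6.89 in CHF ketotifen and 7.33, 7.47 and 7.53 in CHF placebo lungs, and fell by 0.67 (adjusted p = 0.0446). In sham lungs it was at 7.92, 8.07 and 7.90 with ketotifen and 6.82, 6.59 and 6.79 with placebo, a rise of 1.23 (adjusted p = 0.00819). The 3 lungs of a group lay close together, and ketotifen and placebo lungs did not overlap in either surgical group. The interaction was -1.90 ± 0.20 (adjusted p = 0.0017), and it was the 1 negative gene called in all 12 runs with a lung left out.

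Fcrla, an Fc receptor-like protein of B cells, and Ifit1, an interferon-induced RNA sensor, rose with ketotifen in sham lungs. Fcrla was at 10.38, 10.41 and 9.66 in sham ketotifen and 7.61, 6.49 and 7.52 in sham placebo lungs (drug difference 2.94, adjusted p = 0.0277), and at 9.18, 9.72 and 9.23 in CHF ketotifen and 11.0, 9.95 and 9.44 in CHF placebo lungs (-0.76, adjusted p = 0.368). Sham placebo lungs were thus the low group, and the interaction was -3.70 ± 0.57 (adjusted p = 0.0241). On the list of B and plasma cell genes 1 of 5 tested, Fcrla, was called, and the median interaction of the 5 was -0.614.

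Ifit1 was at 6.05, 6.10 and 4.93 in sham ketotifen lungs and between 2.79 and 4.27 in the other 9 (interaction -3.09 ± 0.50, adjusted p = 0.0279; drug difference in sham lungs 2.47, adjusted p = 0.036). It was alone among 15 interferon-induced genes, whose median interaction was -0.154. Isg15, which encodes a ubiquitin-like protein, was at 9.34, 9.36 and 7.04 in sham ketotifen and 7.76, 6.27 and 7.2 in sham placebo lungs (interaction -0.82, adjusted p = 0.76), and Gbp2, a guanylate-binding protein, was at -0.94 (adjusted p = 0.5). Sham ketotifen lung 3 was the lowest of its group for Ifit1, Isg15 and the list as a whole, whose means were 8.58, 8.46 and 7.0.

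Genes that fell in CHF lungs alone were led by Esm1, which endothelial cells at growing vessel tips secrete. It was at 7.55, 7.48 and 7.23 in CHF ketotifen, 9.25, 10.29 and 11.03 in CHF placebo, 9.86, 9.29 and 9.26 in sham ketotifen and 9.04, 9.35 and 9.13 in sham placebo lungs. All 3 CHF ketotifen lungs lay below the other 9, and the interaction was -3.07 ± 0.50 (adjusted p = 0.0293). In CHF lungs it fell by 2.78 (adjusted p = 0.00317). Tmcc2, a membrane protein gene, was at 8.61, 7.70 and 8.57 against 9.87 to 10.66 (-2.29 ± 0.36, adjusted p = 0.0242). Chtf8, a subunit of a clamp loader for DNA replication, was at 5.45, 5.54 and 5.46 against 7.21 to 8.14 (-2.15 ± 0.39, adjusted p = 0.0496). Stxbp6, a regulator of membrane fusion, was at 8.0, 7.83 and 7.54 in CHF ketotifen and 9.53, 9.33 and 9.58 in sham ketotifen lungs, with the placebo lungs between them at 8.21 to 8.88 (-2.01 ± 0.27, adjusted p = 0.0121). Arl15, a small GTPase, was called at -1.24 ± 0.21 (adjusted p = 0.0393).

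The remaining 5 negative genes were called for the interaction and in neither surgical group. They were Serpinb9, an inhibitor of granzyme B (-1.83 ± 0.33), Wtap, a subunit of the RNA methyladenosine writer (-1.57 ± 0.25), Eml4, a microtubule protein (-1.46 ± 0.25), Car2, a carbonic anhydrase (-1.33 ± 0.22), and Bmp6, a bone morphogenetic protein that governs iron through hepcidin (-1.07 ± 0.19). Bmp6 was at 9.92, 9.66 and 9.58 in CHF ketotifen and 10.62, 10.73 and 10.42 in sham ketotifen lungs, with all 6 placebo lungs between 9.97 and 10.44. The placebo groups of Bmp6 therefore overlapped, CHF ketotifen lungs lay below them, and sham ketotifen lungs lay above them except lung 3, which was just below the highest CHF placebo lung. A second probe set of Car2 was called as well (-1.02), whereas those of Wtap (-0.22), Serpinb9 (-1.24), Eml4 (-0.42 and -0.81) and Bmp6 (-1.28) were not. Over all called genes, 12 had 16 further probe sets tested, of which 3 were called and 0 had the opposite sign.

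**Figure D3:**
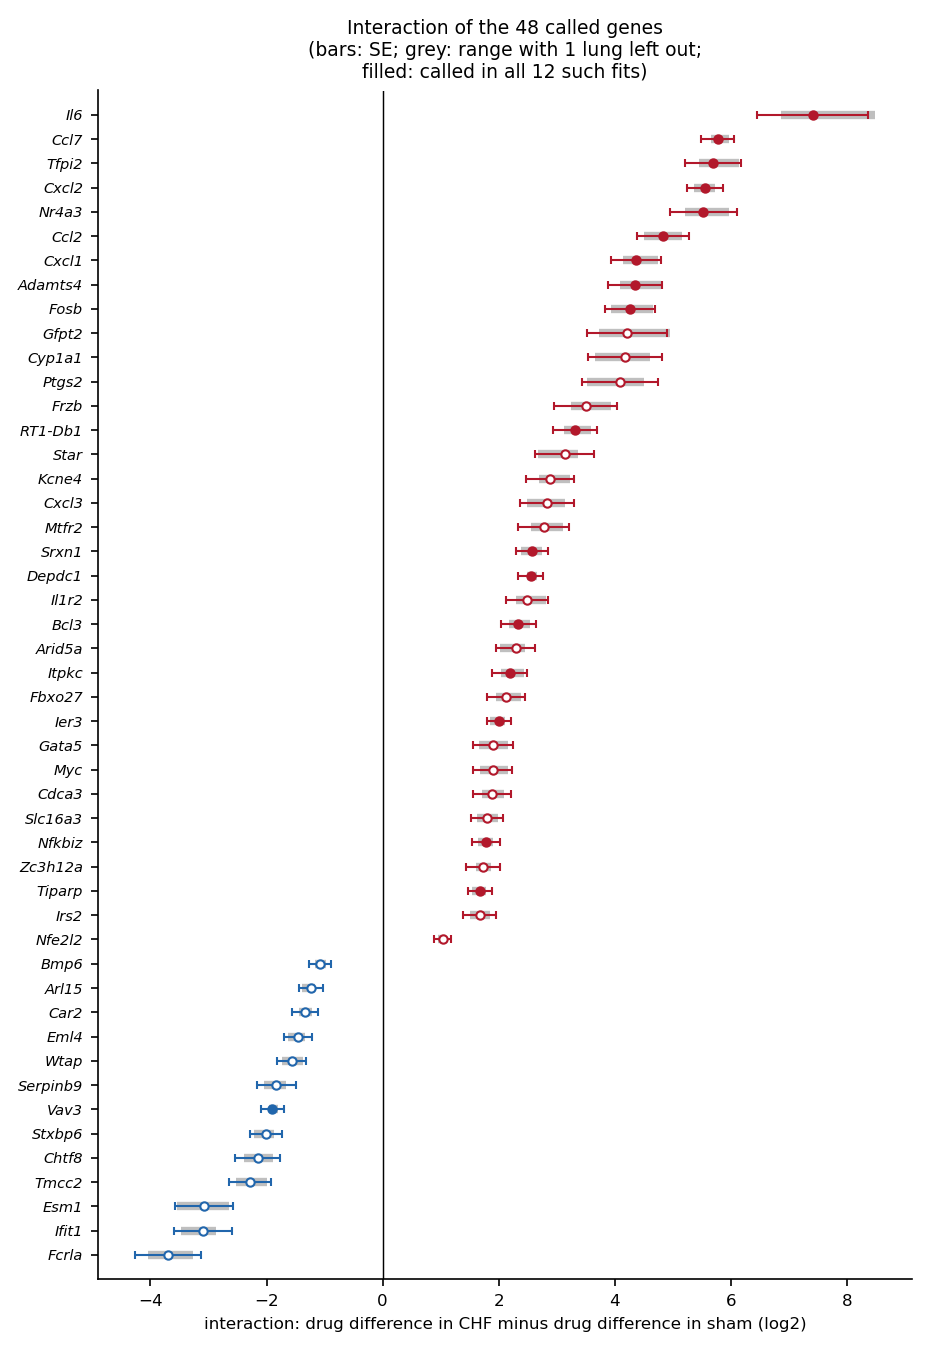
Interaction (log2) of the 48 called genes, 35 above and 13 below 0, with its standard error as a bar and, in grey, the range of the value when each of the 12 lungs is left out. Filled points mark the 18 genes that stayed called in all 12 such fits, of which Vav3 alone is negative.

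In 4 probe sets the positive interaction came from a lower value in sham lungs with ketotifen. RT1-Db1, a class II major histocompatibility beta chain, was at 5.95, 6.37 and 5.74 in sham ketotifen lungs and between 8.85 and 10.31 in the other 9 (interaction 3.32 ± 0.38, adjusted p = 0.00285; drug difference in sham lungs -2.95, adjusted p = 0.00221). On its brighter probe set the difference was smaller and not called: it was at 10.72, 10.95 and 10.63 in sham ketotifen and 11.35, 11.04 and 11.07 in sham placebo lungs, with an interaction of 0.73 (adjusted p = 0.135). There too the 3 sham ketotifen lungs lay below the other 9. Of 8 class II genes 0 were called on the brighter probe sets (3 at an unadjusted p under 0.05), 8 of 8 lay above 0, and the median was 0.553. RT1-Bb was at 1.10 (adjusted p = 0.392) and RT1-Da at 0.50 (adjusted p = 0.357).

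Mtfr2, a mitochondrial fission regulator, fell in sham lungs by 2.13 (adjusted p = 0.036), from 6.2, 6.73 and 6.88 with placebo to 4.03, 4.25 and 5.13 with ketotifen, while CHF lungs stayed between 5.66 and 6.82 (interaction 2.77 ± 0.44, adjusted p = 0.0263). Its other probe set gave 0.81 and was not called. The other 2 probe sets of this kind have no gene symbol in the platform annotation. Probe set 1393108_at was at 2.14, 3.40 and 2.21 in sham ketotifen lungs and between 8.42 and 10.19 in the other 9, a sham difference of -6.38 (adjusted p = 0.000283) and an interaction of 5.74 ± 0.62 (adjusted p = 0.00219). Probe set 1381620_at was at 5.36, 6.12 and 5.80 in sham placebo lungs and between 3.91 and 4.42 in the other 9, so that there it was the sham placebo group that stood apart (1.73 ± 0.31, adjusted p = 0.047). In the opposite direction, the unnamed probe set 1385868_at was at 4.92, 6.41 and 6.03 in sham ketotifen lungs and between 2.44 and 2.78 in the other 9 (-2.96 ± 0.44, adjusted p = 0.0199).

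Mast cell genes, the cells that the drug acts on, gave 0 called members of 10 tested for the interaction, for the drug in CHF and for the drug in sham lungs. Of all 9788 genes, 0.45% were called for the interaction. For the drug, 99 were called higher and 38 lower in CHF lungs, and 4 higher and 2 lower in sham lungs. At such shares, 0 of 10 says little about these genes. For the interaction 9 of the 10 lay below 0 with a median of -1.20, and 5 had an unadjusted p under 0.05, against 1056 of all 9788 genes. For the drug in CHF lungs 2 of the 10 had one, against 1681 of all genes, and in sham lungs 5 of the 10, against 1401. The median drug difference was -0.462 in CHF and 0.89 in sham lungs. Of the 14 listed genes 13 had a probe set matched by symbol, Mcpt2 being the exception, and Mcpt4, Mcpt9 and Ms4a2 did not pass the filter on low values.

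Fcer1a, a chain of the receptor by which mast cells bind IgE, was at 6.36, 5.38 and 5.90 in CHF ketotifen, 5.61, 7.03 and 6.33 in CHF placebo, 5.04, 4.49 and 4.48 in sham ketotifen and 3.12, 2.65 and 2.68 in sham placebo lungs. In sham rats the ketotifen lungs were all above the placebo lungs, in CHF rats the arms overlapped, and the interaction of -2.30 ± 0.51 did not pass (adjusted p = 0.117). Mcpt10, a granule protease, was at 9.03, 7.85 and 8.14 in CHF ketotifen, 8.26, 9.85 and 9.40 in CHF placebo, 7.31, 6.81 and 7.98 in sham ketotifen and 5.67, 4.60 and 5.59 in sham placebo lungs (-2.91 ± 0.67, adjusted p = 0.132). Cpa3, the mast cell carboxypeptidase, was at 8.12, 5.95 and 6.87 in CHF ketotifen, 6.6, 8.38 and 7.78 in CHF placebo, 6.27, 5.22 and 6.10 in sham ketotifen and 2.91, 3.22 and 4.52 in sham placebo lungs (-2.92 ± 0.88, adjusted p = 0.26). These 3, the mast cell genes of smallest interaction p, had the same order of group means, lowest in sham placebo lungs. The tryptase genes Tpsb2 and Tpsab1 had it too. The chymase genes Mcpt1l1 and Cma1 were also lowest there but highest in CHF ketotifen lungs. Their means were 7.80 and 7.46 there, against 7.54 and 6.86 in CHF placebo lungs. Gata2, Kit and Hdc were not lowest in sham placebo lungs. The sham placebo means of Fcer1a (2.82) and Cpa3 (3.55) were near background.

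The tryptases Tpsb2 (-1.83 ± 0.62, adjusted p = 0.322) and Tpsab1 (-1.16 ± 0.67, adjusted p = 0.556), the chymases Mcpt1l1 (-1.13 ± 0.73, adjusted p = 0.598) and Cma1 (-0.47 ± 0.68, adjusted p = 0.84), the transcription factor Gata2 (-1.25 ± 0.54, adjusted p = 0.447) and the stem cell factor receptor Kit (-0.60 ± 0.87, adjusted p = 0.84) did not pass either. Related proteases share sequence, so their probe sets may report on each other. Kit and Gata2 are also expressed by other lung cells.

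Of 9 genes of histamine synthesis, breakdown, transport and reception 3 were tested, 0 were called for the interaction (1 at an unadjusted p under 0.05), and all 4 histamine receptors were below the filter. Hdc, which makes histamine and is also on the mast cell list, was at 6.83, 6.51 and 6.74 in CHF ketotifen, 6.15, 6.81 and 6.70 in CHF placebo, 7.15, 7.52 and 7.25 in sham ketotifen and 6.67, 7.84 and 7.34 in sham placebo lungs, an interaction of 0.12 ± 0.39 (adjusted p = 0.943). Aoc1, diamine oxidase, which breaks histamine down, was at 0.31 ± 0.65 (adjusted p = 0.895). Slc22a3, a transporter that clears histamine, was at 1.30 ± 0.39 (adjusted p = 0.255), and its drug difference in CHF lungs was called, at 1.31 (adjusted p = 0.0461).

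Markers of other cell types were read beside these results. Among all genes, 0.45% were called for the interaction and 50.8% lay above 0. Alveolar type 1 cell genes lay below 0 in 7 of 7 cases with a median of -1.25, and 0 were called (3 at an unadjusted p under 0.05), the closest being Akap5 at -2.71 ± 0.52 (adjusted p = 0.0651), while Ager was at -1.25 (adjusted p = 0.475). The list mean was lowest in sham placebo lung 2, 9.95 against 10.42 to 11.72 in the others. T and natural killer cell genes lay below 0 in 10 of 10 cases with a median of -1.78, and 0 were called (2 at an unadjusted p under 0.05). Gzma, a granzyme, was at 8.0, 9.02 and 7.15 in sham ketotifen and 7.90, 3.64 and 5.86 in sham placebo lungs (-2.72 ± 1.49, adjusted p = 0.54), and sham placebo lung 2 again had the lowest list mean, 3.83. With each of the 12 lungs left out in turn the T and natural killer median ran from -2.41 to -0.993, the value without sham placebo lung 2, and it was -0.235 without the 3 lungs of largest beta-actin difference. The alveolar type 1 median ran from -1.59 to -0.384 over all alternatives.

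Endothelial genes gave 1 called member of 14, Esm1 (7.14%, against 0.45% of all genes), and 3 above 0, with a median of -0.516. Cldn5, the endothelial tight junction gene, was at 11.77, 11.15 and 11.77 in CHF ketotifen lungs and 12.44 to 13.13 in the other 9, with an interaction of -1.19 (adjusted p = 0.142) that did not pass and a called drug difference of -1.16 in CHF lungs (adjusted p = 0.0191). Emcn, endomucin, pointed the other way, at 0.99 (adjusted p = 0.154). In 16 of 17 vasoactive genes the interaction was below 0 with a median of -0.589, and 0 were called (4 at an unadjusted p under 0.05). Npr3, the clearance receptor for natriuretic peptides, was at 3.11, 3.12 and 2.87 in CHF ketotifen lungs against 3.79 to 5.55 elsewhere (-1.68, adjusted p = 0.237).

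Macrophage genes had a median of 0.373 with 0 of 13 called, and complement genes one of 0.944 with 0 of 12 called (2 and 4 at an unadjusted p under 0.05). Cd14, a coreceptor for endotoxin, was at 1.18 (adjusted p = 0.33) and C1qa at 1.32 (adjusted p = 0.374). The macrophage list mean was 9.51 to 9.95 in CHF ketotifen lungs and 9.51 in CHF placebo lung 1, against 6.96 to 8.62 in the other 8, so that this lung reached the level of the treated ones. The part of macrophage abundance in the cytokine results was not tested. Alveolar type 2 genes, the defining markers of the tissue, were at list means of 12.20 to 13.10 in every lung, with a median interaction of -0.128. Oxidative phosphorylation genes had a median of -0.0309, with 0 of 21 called and 0 at an unadjusted p under 0.05. Glucocorticoid-induced genes had a median of -0.0624 with 0 of 15 called, but their members went both ways: 6 of 15 lay above 0, and 7 had an unadjusted p under 0.05. Mt1, a metallothionein, was at 1.63 (adjusted p = 0.106), and its drug difference in CHF lungs was called, at 1.56 (adjusted p = 0.0125).

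**Figure D4:**
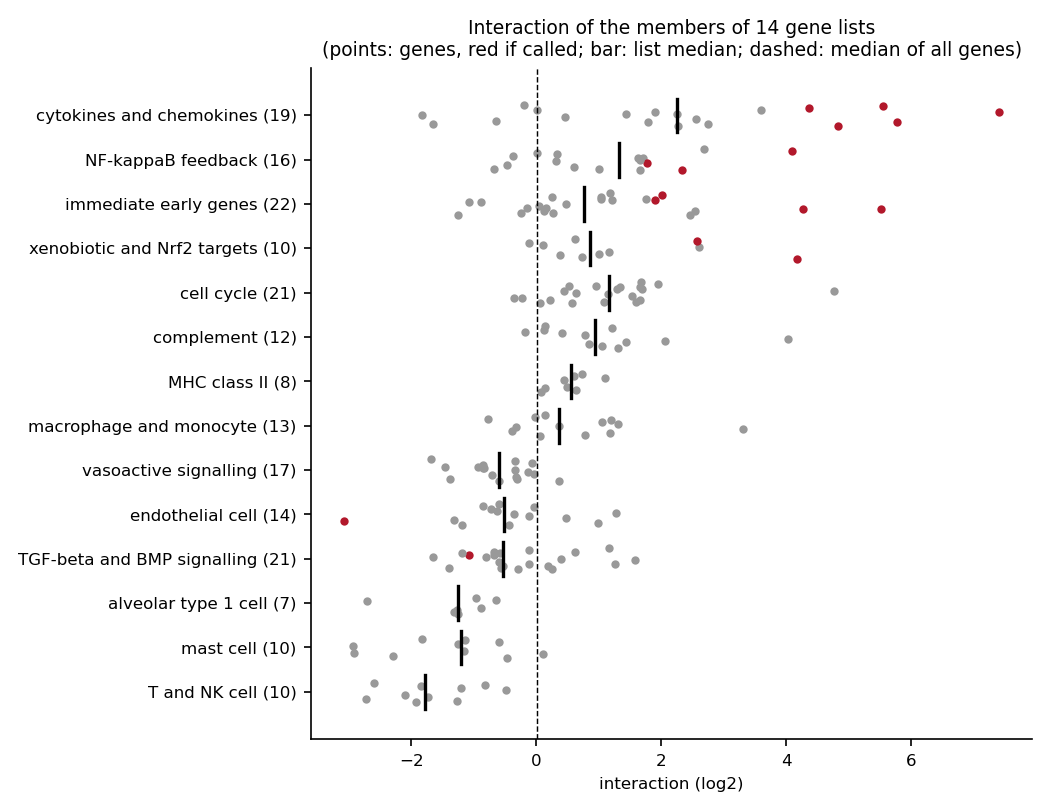
Interaction (log2) of the members of 14 fixed gene lists, 1 point per gene tested on its brightest probe set, red if called, with a bar at the list median and a dashed line at the median of all 9788 genes (0.00788). Cytokine, NF-kappaB feedback, immediate early and xenobiotic genes hold 14 of the red points, and the mast cell, alveolar type 1 and T and natural killer lists lie almost wholly below 0 with none called.

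Some lungs stood apart in ways the groups do not describe. Markers of heart muscle, which in rats also lines the pulmonary veins, had list means of 7.95 in sham placebo lung 3, 6.17 in sham ketotifen lung 1 and 9.05 in sham ketotifen lung 2, against 2.89 to 3.54 in the other 9. Smooth muscle genes had a list mean of 10.63 in sham placebo lung 2, against 8.29 to 9.30 elsewhere. Ciliated cell genes had 8.76 there, against 5.46 to 7.68. Club cell means were 9.41 in sham placebo lung 2, 11.83 in sham placebo lung 3 and 9.89 in sham ketotifen lung 2, against 5.07 to 8.55 elsewhere. The interaction lay above 0 in 9 of 9 smooth muscle and 7 of 8 ciliated genes, with medians of 1.01 and 1 and 0 called. The signal of the 3' beta-actin control exceeded that of its 5' control by 4.52 in sham ketotifen lung 2, 4.23 in sham placebo lung 2 and 3.90 in sham placebo lung 3, against 2.90 to 3.45 elsewhere. CHF ketotifen lungs 1 and 3 were the closest pair of all arrays (Pearson r of 0.9927, SD of their differences 0.258, against 0.397 for the next closest pair). CHF placebo lung 1 was the highest of its 3 in 29 of the 42 positive probe sets (69%), against 41% of all tested.

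The number of calls moved with almost every lung. Leaving out lungs 1, 2 and 3 of the CHF placebo group gave 303, 21 and 30 calls. Leaving out sham placebo lung 1 gave 195 and lung 3 gave 22. Sham ketotifen lungs 1, 2 and 3, each left out, gave 26, 34 and 34 calls. Leaving out CHF ketotifen lung 1 gave 33 calls and lung 3 gave 29. Without sham placebo lung 2 it was 42 and without CHF ketotifen lung 2 it was 48. Without the 3 lungs of largest beta-actin difference 2 probe sets remained called, and 3 without the 3 lungs of high heart muscle signal, each set leaving a single lung in 1 of the sham groups. Ccl7 and Cxcl2 were called in each of the 12 runs with a lung left out and in each of the 12 other alternatives. The other 16 genes called in all 12 runs with a lung left out were Il6, Ccl2, Cxcl1, Nr4a3, Fosb, Ier3, Nfkbiz, Bcl3, Tiparp, Srxn1, Tfpi2, Adamts4, Depdc1, Itpkc, RT1-Db1 and Vav3. The interaction of the 48 genes changed sign in 0 of these alternatives.

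**Figure D5:**
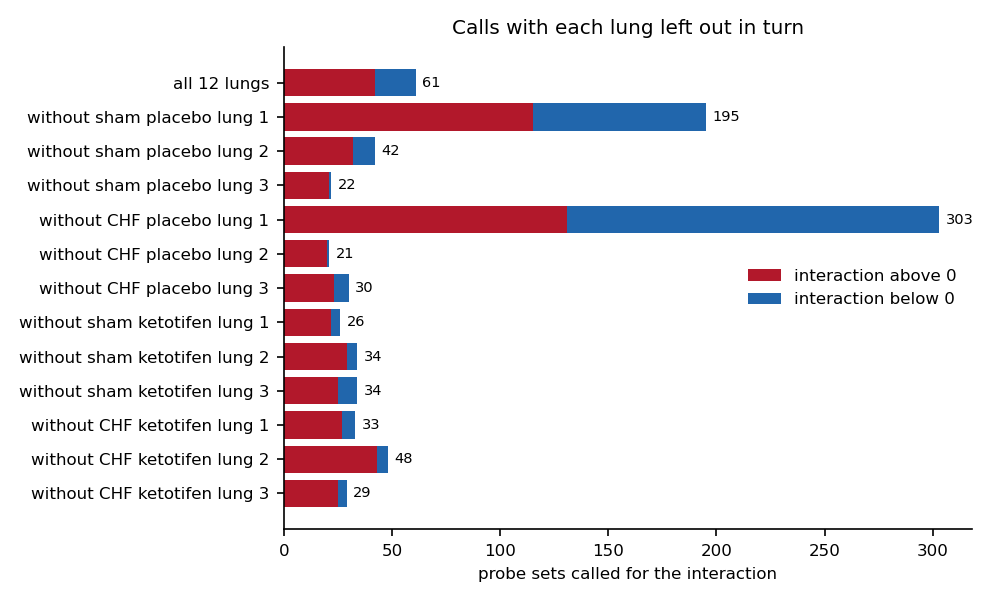
Number of probe sets called for the interaction with all 12 lungs and with each lung left out in turn, split by direction. The count of 61 grows to 303 without CHF placebo lung 1 and to 195 without sham placebo lung 1, and falls to between 21 and 48 without any other lung.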

How the data were processed

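Total RNA of the whole lung was labelled by a one-cycle protocol and hybridized to Affymetrix Rat Genome arrays, per the labels' protocols. The deposited values are log2 expression values per probe set, made by the authors with GCRMA (R 2.5.0), as the submitters' processing notes list; other settings, scan dates and extraction batches were not given in the sources used here. GCRMA corrects background by probe base content, normalizes arrays to each other and summarizes probes, so values flatten near background. Of 31099 probe sets 57 were controls, used for the 3' minus 5' signal alone; 20826 of the others had 1 symbol in the platform annotation, 436 several and 9780 none. Probe sets with log2 of at least 4 in at least 3 of 12 arrays were kept: 16536, for 9788 genes. Groups came from the sample titles in the labels.

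All 12 arrays entered 1 fit with 4 group means in limma 3.58.1 (R 4.3.3; eBayes with an intensity trend, 8 residual degrees of freedom, two-sided, Benjamini-Hochberg adjustment over all probe sets kept, called under 0.05), tested on simulated data. Standard errors are moderated. The interaction and both drug differences were contrasts of it. Rats were not treated as paired by number (see the dependence on processing). Members, 41 gene lists (638 entries, 560 on the array, 453 kept; brightest probe set per gene) and tests were chosen with earlier results of these data known. Named were the 15 largest positive and up to 15 largest negative called genes with 1 symbol (no LOC, RGD, MGC or AABR symbols, the called probe set of smallest p), the 4 of smallest p per shape of response, and up to 4 list members of smallest p, with mast cell and histamine genes in full. Promoters came from RefSeq (GRCr8). Alternatives varied the filter, floor, normalization, trend, weights, block, covariate and lungs used.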

Additional observations from a re-analysis of the deposited data

Results flagged for a closer look

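The drug difference differed between CHF and sham lungs, by the test of the interaction itself, in 61 probe sets with 48 named genes. The interaction differences of chemokine, cytokine and other genes above 0 were, on the log2 scale, Il6 7.41, Ccl7 5.77, Tfpi2 5.70, Cxcl2 5.55, Nr4a3 5.52, Ccl2 4.83, Cxcl1 4.36, Adamts4 4.35, Fosb 4.27, Gfpt2 4.21, Cyp1a1 4.17 and Ptgs2 4.09. Those between 1 and 4 were Frzb 3.5, RT1-Db1 3.32, Star 3.13, Kcne4 2.89, Cxcl3 2.83, Mtfr2 2.77, Srxn1 2.57, Depdc1 2.55, Il1r2 2.49, Bcl3 2.34, Arid5a 2.29, Itpkc 2.19, Fbxo27 2.12, Ier3 2.01, Gata5 1.91, Myc 1.90, Cdca3 1.88, Slc16a3 1.80, Nfkbiz 1.78, Zc3h12a 1.72, Tiparp 1.68, Irs2 1.68 and Nfe2l2 1.03. The interaction differences below 0 were Fcrla -3.70, Ifit1 -3.09, Esm1 -3.07, Tmcc2 -2.29, Chtf8 -2.15, Stxbp6 -2.01, Vav3 -1.90, Serpinb9 -1.83, Wtap -1.57, Eml4 -1.46, Car2 -1.33, Arl15 -1.24 and Bmp6 -1.07. All 48 were tested in 1 fit with 3 lungs per group.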

How the results depend on the processing

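Counts of called probe sets depended on the lungs and on the weighting more than on scaling. With each lung left out in turn the interaction gave 21 to 303 calls instead of 61, the drug in CHF lungs 72 to 1219 instead of 201, and the drug in sham lungs 4 to 722 instead of 14. Where a run left 1 lung in a group, that lung is assumed to vary like the others. Array quality weights gave 1132, 4134 and 702 calls for the interaction, the drug in CHF and the drug in sham lungs. Averaging CHF ketotifen arrays 1 and 3 gave 28, 88 and 8. Leaving out the 3 arrays of largest beta-actin difference gave 2 for the interaction and 0 for the drug in sham lungs in limma (607 at an unadjusted p under 0.05; no other tool was run), and leaving out the 3 of high heart muscle signal gave 3, 68 and 3. Fewer arrays enter these fits; other causes were not tested. Without a filter the interaction gave 36 calls among more probe sets, and a filter at log2 of 6 gave 7 for the drug in sham lungs. A floor at 4, quantile normalization, median centring, no trend and the beta-actin covariate left the interaction at 57 to 71 calls.

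With the replicate number as a block the interaction gave 37 calls and the drug in sham lungs 6. The values gave no clear sign that the numbers pair the rats. The 18 pairs of same-numbered samples had correlations of their deviations from -0.347 to 0.263. Their median was 0.0508 against -0.0325 for other pairs, and 3 of 12 arrays matched their own number best. With 3 lungs per group, this cannot exclude that same-numbered rats shared some handling.

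Alternatives were not run for every gene named, such as the uncalled cytokine and immediate early genes named after their values were seen. Among the named genes that were run, 5 not called for the interaction changed sign in some run, and the cause was not tested. Leaving out the 3 arrays of largest beta-actin difference gave -0.32 for Aoc1, -0.39 for Hdc, 0.25 for Isg15 and 0.18 for Kit. Leaving out those of high heart muscle signal gave 0.66 for Isg15, and a floor at 4 gave 0.24 for Cma1. With each lung left out in turn Aoc1 ran from -0.0691 (without CHF placebo lung 3) to 0.80, Hdc from -0.16 (without sham placebo lung 2; -0.0855 without CHF placebo lung 1) to 0.43, and Kit from -1.14 to 0.20 (without sham placebo lung 2).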

Other observations

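Gene groups outside the lists above gave few calls. The median interaction was 0.307 for 23 fibroblast and matrix genes, with 0 called and 3 at an unadjusted p under 0.05. There Mmp2, a gelatinase, was at 1.03 (adjusted p = 0.12) and Timp1, a metalloproteinase inhibitor, at 1.48 (adjusted p = 0.2), and both were called for the drug in CHF lungs, at 0.86 (adjusted p = 0.0331) and 1.69 (adjusted p = 0.0157). Timp1 was at 11.80, 11.42 and 11.83 in CHF ketotifen, 10.22, 9.45 and 10.32 in CHF placebo, 8.59, 9.01 and 8.95 in sham ketotifen and 9.21, 8.51 and 8.22 in sham placebo lungs. The growth factor gene Areg had an interaction of 3.92 ± 0.77 that did not pass (adjusted p = 0.0678), with 8.40, 8.13 and 7.90 in CHF ketotifen lungs and 2.68 to 4.86 in the others. Its drug difference in CHF lungs was called, at 4.68 (adjusted p = 0.00177).

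The beta-globin gene Hbb, a red cell marker, was at 12.96, 12.75 and 12.89 in CHF ketotifen, 12.36, 14.01 and 14.95 in CHF placebo, 10.99, 9.67 and 10.16 in sham ketotifen and 7.66, 7.99 and 9.64 in sham placebo lungs (interaction -2.75 ± 0.90, adjusted p = 0.305). Alas2, which starts heme synthesis in red cell precursors, spread from 4.08 to 9.40 within CHF placebo lungs and from 4.99 to 5.64 within CHF ketotifen lungs (-1.56 ± 1.36, adjusted p = 0.706). Hpgd, which inactivates prostaglandins, was at 6.88, 6.62 and 7.12 in CHF ketotifen lungs and 7.62 to 10.75 in the others (-2.53 ± 0.65, adjusted p = 0.183). Smad6, an inhibitor of bone morphogenetic protein signalling, was at -1.65 ± 0.45 (adjusted p = 0.215), on a list of 21 genes with 1 call, Bmp6, and a median of -0.538.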
